A study of Mus musculus with 18 samples.

Results

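A set of 10 genes of MHC class I antigen presentation was followed in mouse small intestine after total abdominal irradiation (TAI). They were the class I heavy chains H2-K1 and H2-D1, the light chain B2m, the peptide transporter genes Tap1 and Tap2, the loading factor Tapbp, the immunoproteasome subunits Psmb8, Psmb9 and Psmb10, and the transcriptional activator Nlrc5. They were taken by symbol from a transcript table of FPKM, which scales fragments by transcript length and by the number mapped in the library, and the FPKM of all transcripts with one symbol were added. All 10 were among the 21928 symbols of the table and among the 11767 that reached 1 FPKM in at least 3 of the 18 libraries. The 18 libraries came from wild-type C57BL/6 mice in 6 groups of 3: male control, male TAI, male TAI with simvastatin, female control, female TAI, and female TAI with a high-fat diet (HFD). Control mice were not irradiated, the study's methods give a dose of 12 Gy to the abdomen and tissue collection at day 21, and no genetic change was carried by any group. Simvastatin without TAI, HFD without TAI, simvastatin in females and HFD in males were not among the libraries, so each agent was seen only in irradiated mice of one sex.

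Class I molecules carry short peptides from proteins made inside the cell to the cell surface, where CD8 T cells read them. The peptides are cut by the proteasome, pumped into the endoplasmic reticulum by the Tap1 and Tap2 transporter, and loaded onto a heavy chain paired with B2m while Tapbp (tapasin) holds the empty molecule at the transporter. In cells exposed to interferon gamma the catalytic subunits Psmb5, Psmb6 and Psmb7 are replaced by Psmb8, Psmb9 and Psmb10, which gives the immunoproteasome. Nlrc5, a member of the NLR family, enters the nucleus and raises transcription of class I and associated genes together with factors bound at the X and Y boxes of their promoters. In the intestine the pathway is used by epithelial cells as well as by immune cells, and the epithelium is surveyed by CD8 intraepithelial lymphocytes.

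Of the 10 genes, 7 lie on chromosome 17 of the mouse assembly GRCm38 as annotated by GENCODE M21. Psmb9 (chr17:34181987-34187764, minus strand), Tap1 (chr17:34187553-34197225, plus), Psmb8 (chr17:34197721-34201454, plus) and Tap2 (chr17:34203527-34216321, plus) follow one another within 34335 bases. Tapbp (chr17:33915899-33929292, plus) and H2-K1 (chr17:33996017-34000347, minus) lie on one side of that block and H2-D1 (chr17:35262730-35267499, plus) on the other. B2m is on chromosome 2 (chr2:122147686-122153083, plus), and Nlrc5 (chr8:94434356-94527272, plus) and Psmb10 (chr8:105935735-105938444, minus) are on chromosome 8. The annotated Psmb9 and Tap1 genes overlap by 212 bases on opposite strands, and fragments from that stretch cannot be told apart where strand is not used. For the deposited table the sources used here name no build.

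RefSeq promoter windows on GRCm38.p6 (250 bases before to 50 after the annotated start) were found for 8 of the 10 genes and not for Tap2 or Nlrc5. The stretches below are shown because they precede the genes that are set side by side in the results: the heavy chains with B2m, and Tap1 with Psmb9. Capitals mark matches, on either strand, to the kappaB consensus, to the interferon regulatory factor (IRF) core AANNGAAA, to the X2 core TGACG and to the Y box ATTGG. H2-K1 is read from the minus strand at chr17:34000349-34000468, H2-D1 from the plus strand at chr17:35262913-35263032, B2m from the plus strand at chr2:122147540-122147648, and the bases between the Psmb9 and Tap1 start sites from the plus strand at chr17:34187331-34187555.
H2-K1: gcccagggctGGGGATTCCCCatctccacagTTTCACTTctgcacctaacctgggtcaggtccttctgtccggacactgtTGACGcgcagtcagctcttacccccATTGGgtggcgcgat
H2-D1: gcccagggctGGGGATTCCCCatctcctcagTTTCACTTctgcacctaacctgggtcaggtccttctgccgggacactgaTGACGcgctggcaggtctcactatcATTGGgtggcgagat
B2m: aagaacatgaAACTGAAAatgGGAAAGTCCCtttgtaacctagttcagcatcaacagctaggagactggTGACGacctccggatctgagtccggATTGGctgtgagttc
Psmb9 and Tap1: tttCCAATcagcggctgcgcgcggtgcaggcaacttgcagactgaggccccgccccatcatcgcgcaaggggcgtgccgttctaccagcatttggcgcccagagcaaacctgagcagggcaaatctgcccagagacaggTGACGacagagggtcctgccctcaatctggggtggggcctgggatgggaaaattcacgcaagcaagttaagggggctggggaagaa

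In H2-K1, H2-D1 and B2m the X2 core was followed by exactly 20 bases and then the Y box. This arrangement was read from these 3 genes and then searched in all windows on both strands, and it was present in 27 of 27025 genes, or 0.0999%. Of the other 27 class I and class I-like chains listed, 16 had a window and 1, H2-M3, held the arrangement. Its parts were common, since the X2 core matched in 20.8% of all 32851 windows and the Y box in 37.4%. The kappaB consensus matched in 4.51% of windows and the IRF core in 23.9%, and both were present in H2-K1, H2-D1 and B2m and absent from the other 5 windows. In H2-K1 and H2-D1 a pair of overlapping kappaB matches, each read on both strands, lay upstream of the IRF core, while in B2m the IRF core came first. The Tap1 and Psmb9 windows shared 275 bases read in opposite directions, with 1 X2 core and 1 Y box between the start sites. The gamma-activated site TTCNNNGAA, present in 8.3% of windows, matched in Psmb8 alone among the 8, and the Psmb10 window held none of the motifs searched. These matches describe letters in a window and say nothing about what is bound there.

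**Figure D1:**
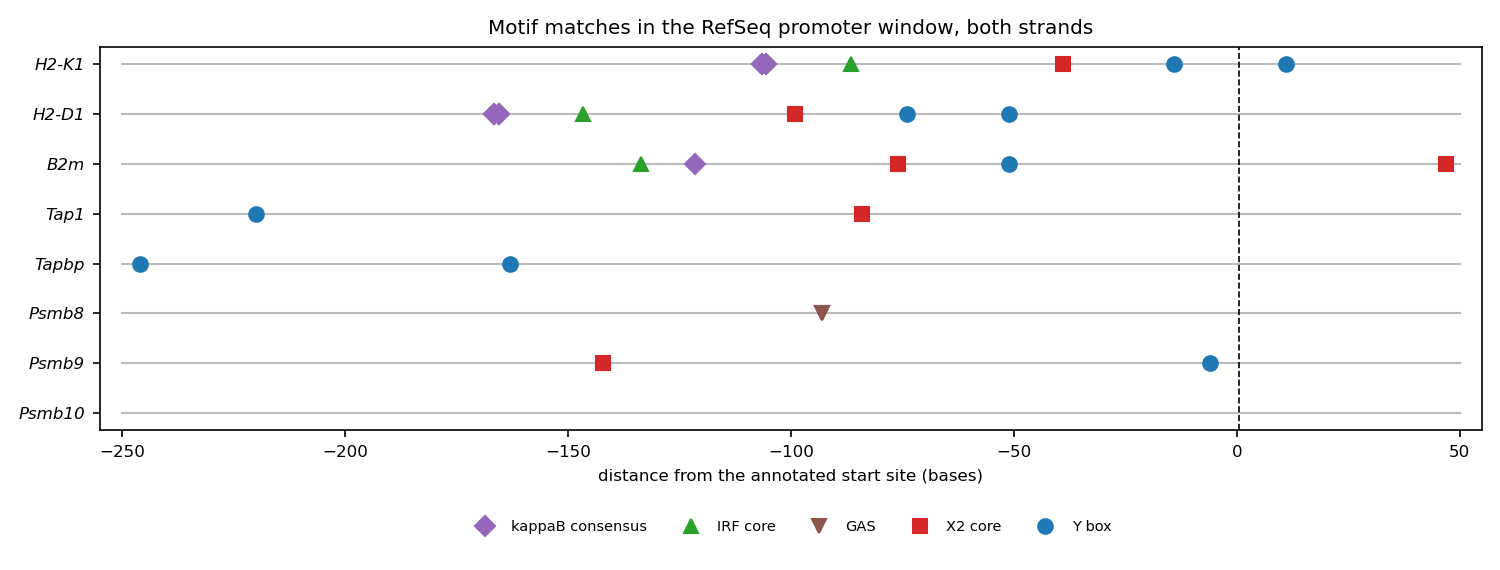
Positions of motif matches in the promoter windows of 8 genes, in bases from the annotated start site (dashed line), with both strands searched. The X2 core and the Y box that follows it keep the same distance in H2-K1, H2-D1 and B2m, with 20 bases between them, although the pair lies at a different distance from the start site in each gene.

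The 10 genes covered a wide range of levels per length. B2m averaged 1602 FPKM over the 18 libraries and ranked 24 of 11767 genes, H2-K1 averaged 703 FPKM (rank 58) and H2-D1 472 FPKM (rank 83). Below the chains came Tapbp at 105 FPKM, Psmb10 at 78.7, Psmb8 at 72.9, Tap1 at 38.8, Psmb9 at 35.1 and Tap2 at 20.6 FPKM. Nlrc5 was lowest at 8.89 FPKM, near the middle of all tested genes (percentile 53.7). The least abundant gene spread most. Nlrc5 differed 2.33-fold between its highest and lowest library (14.0 FPKM in male TAI replicate 2 and 6.03 in HFD replicate 2) and Tap1 1.86-fold, against 1.39-fold for B2m. The heavy chains are members of a gene family with near-identical copies, so their values are uncertain where fragments could be split among copies. In GENCODE M21 the main H2-D1 transcript shared 4.64% of its stretches of 100 bases with other genes and the main H2-K1 transcript 0%, while for stretches of 50 bases the shares were 14.3% and 8.79%. The sources used here do not state the read length.

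**Figure D2:**
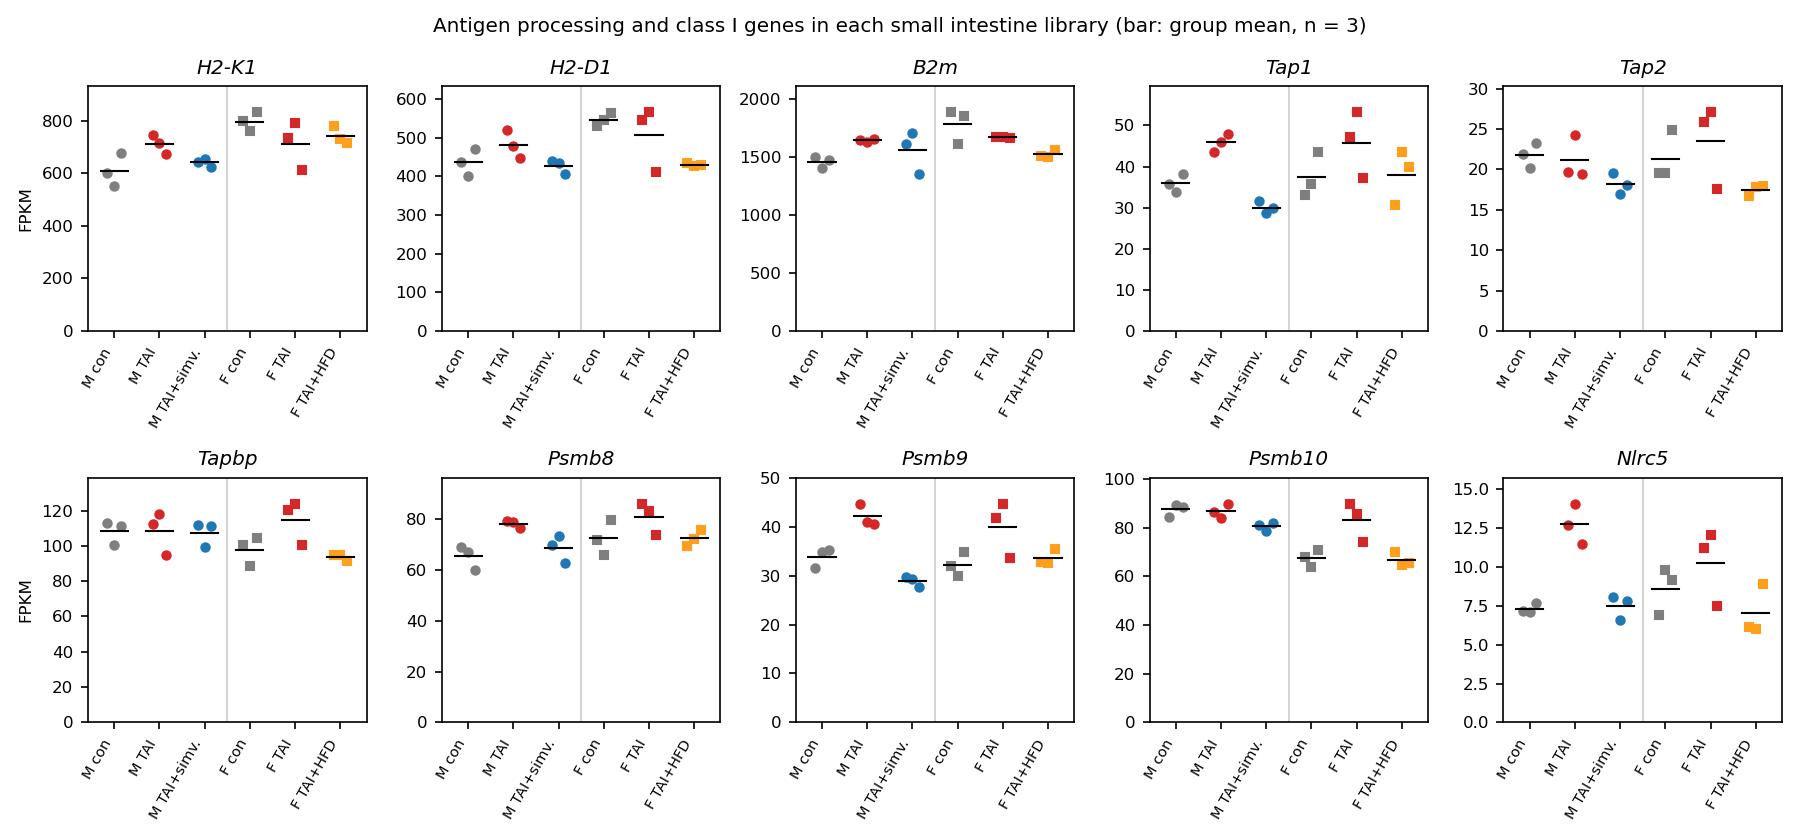
FPKM of each of the 10 genes in the 18 libraries, with males as circles and females as squares, 3 libraries a group, and a bar at the group mean. Nlrc5 stands at 11.4 to 14.05 FPKM in male TAI and at 7.06 to 7.69 in male controls, and female TAI replicate 3 is the lowest of its group in all 10 genes.

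A pair of libraries stood apart in genes of other cell types. The 12 Paneth cell genes summed to 6449.6 FPKM in female TAI replicate 3, against 249 and 605 in the other female TAI libraries and 107 to 260.2 in female controls. That library also had the highest sums of the 18 for proliferating cell genes (204 FPKM) and smooth muscle genes (541 FPKM). The same held for macrophage and dendritic cell genes (105.8 FPKM) and blood vessel endothelium genes (28.4 FPKM). Its enterocyte sum was the lowest (23668 FPKM), and its factor under median ratio scaling, an alternative used below, was the largest (1.21). Male control replicate 3 had the lowest sum of macrophage and dendritic cell genes of the 18 libraries (31.5 FPKM, with 83.2 and 78.5 in the other male controls). Where a call or a value moved most with one of these libraries, it is also given without it. Enterocyte genes, which define the tissue, summed to 23668 to 38505 FPKM in every library, and genes of the Y chromosome were at most 0.0205 FPKM in libraries labelled F and at least 5.47 in those labelled M. FPKM sums per library were 390703 to 417937, and the number of reads behind them is unknown.

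The first comparison asked what TAI changed in males. Nlrc5 rose from 7.18, 7.06 and 7.69 FPKM in the 3 controls to 12.7, 14.05 and 11.4 after TAI. The groups did not overlap. On the log2(FPKM + 1) scale, used for every difference given here, the difference was 0.72 (SE 0.17, adjusted p = 0.0356) by limma with Benjamini-Hochberg adjustment over 11767 genes. Nlrc5 was the only 1 of the 10 past the adjusted threshold of 0.05, where 1.20% of all genes were called higher. The call was lost without any 1 of the 6 libraries (adjusted p from 0.0707 to 0.152), with the value at 0.65 to 0.79. It was lost as well with median ratio scaling (0.67, adjusted p = 0.145) and quantile normalization (0.67, adjusted p = 0.107).

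Around Nlrc5, 5 of the 10 genes had all 3 TAI libraries above all 3 controls, where 10.3% of all genes did. Psmb9, the immunoproteasome subunit in place of Psmb6, was at 31.5, 34.8 and 35.3 FPKM in controls and 44.7, 41.01 and 40.6 after TAI, a log2 difference of 0.31 (SE 0.09, adjusted p = 0.127) by limma. Psmb8, in place of Psmb5, was at 68.9, 66.9 and 59.7 and 79.2, 78.7 and 76.2 FPKM, a difference of 0.26 (SE 0.09, adjusted p = 0.176). Neither passed the test. Tap1, one chain of the transporter, stood at 35.9, 33.9 and 38.1 FPKM in controls and 43.6, 46.1 and 47.9 after TAI, with 0.34 (SE 0.14, adjusted p = 0.283). B2m, the fifth gene, was at 1495, 1402 and 1474 and 1643, 1629 and 1652 FPKM, with an adjusted p of 0.527 by limma. The remaining genes overlapped between the groups. H2-K1 was at 611 ± 63.7 FPKM in controls and 712 ± 35.1 after TAI (mean ± SD, n = 3 each), Tap2 at 21.8 ± 1.55 and 21.2 ± 2.75, Tapbp at 108 ± 6.76 and 108 ± 12.1, and Psmb10 at 87.5 ± 2.68 and 86.8 ± 2.85. Thus within the transporter Tap1 and Tap2 had differences of 0.34 and −0.04, and within the immunoproteasome Psmb10 had −0.01 beside 0.26 and 0.31 for Psmb8 and Psmb9, which were not tested against one another. The median over the 10 genes was 0.20, and over all genes 0.05. An unadjusted p under 0.05 (limma) was found in 5 of the 10 (Nlrc5, Psmb9, Psmb8, Tap1 and H2-K1), and in 12.1% of all genes. In bulk tissue, fewer cells of a type and less RNA per cell cannot be told apart.

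**Figure D3:**
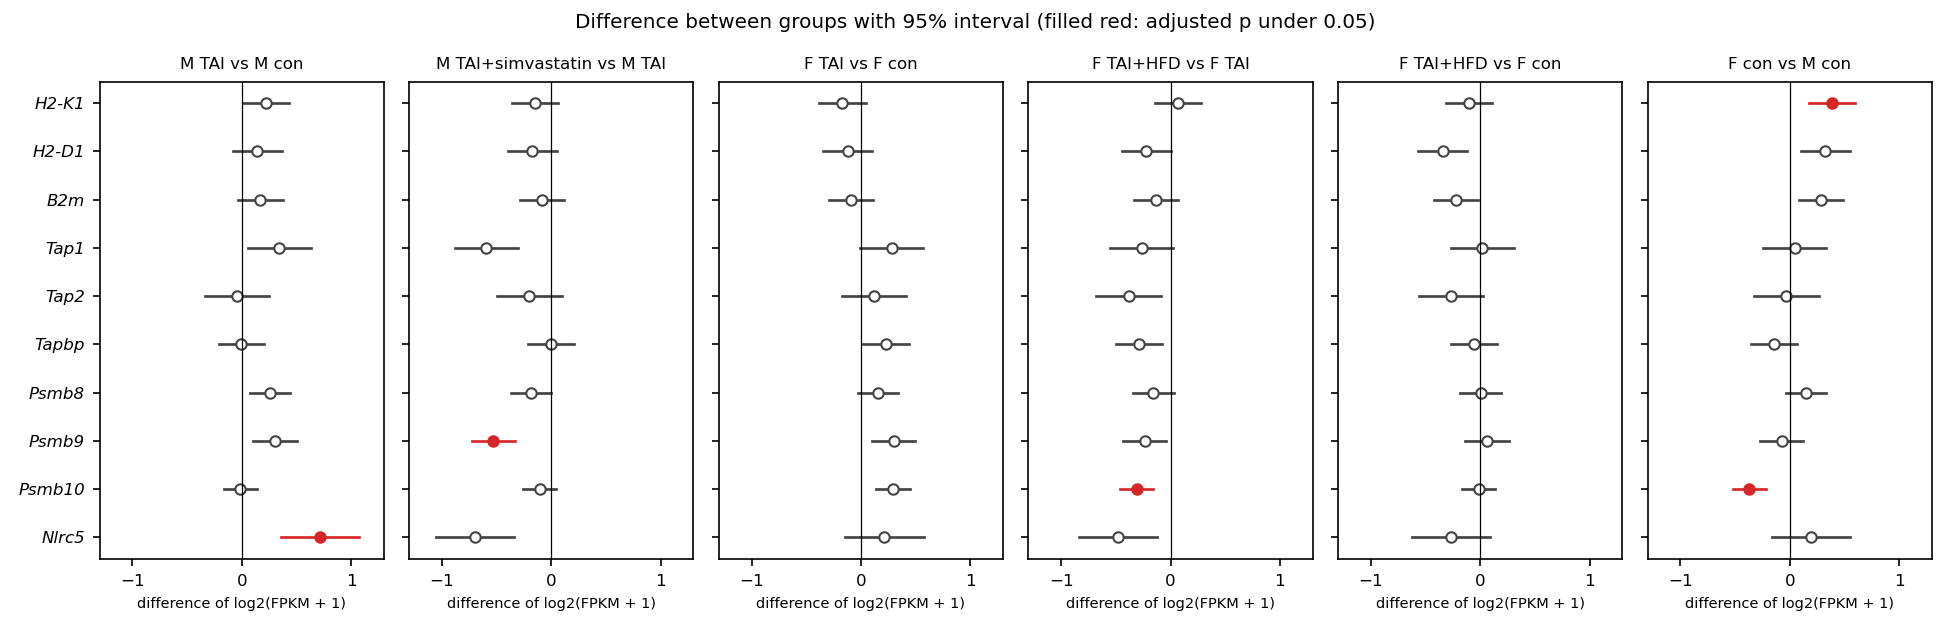
Difference of log2(FPKM + 1) between groups for each gene with its 95% interval from limma, in 6 comparisons. Filled red points passed the adjusted threshold of 0.05: Nlrc5 after male TAI, Psmb9 with simvastatin, Psmb10 with HFD, and H2-K1 and Psmb10 between the sexes in unirradiated mice.

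The second comparison asked what simvastatin changed in irradiated males. Psmb9 fell by 0.53 on the log2 scale (SE 0.09, adjusted p = 0.0135, limma), from 44.7, 41.01 and 40.6 FPKM after TAI to 29.6, 29.3 and 27.6 with simvastatin. Every simvastatin library was also below every unirradiated control, although that difference did not pass the test (−0.22, SE 0.09, adjusted p = 0.21). Psmb9 was the only 1 of the 10 called lower, with 0.620% of all genes. The call was lost without male TAI replicate 1 or 2 or without simvastatin replicate 1 or 3 (adjusted p from 0.0531 to 0.101), and under median ratio scaling (−0.41, adjusted p = 0.280) and quantile normalization (−0.46, adjusted p = 0.0857).

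Tap1 and Nlrc5 came next. Tap1 was at 31.5, 28.7 and 29.8 FPKM with simvastatin, below all 3 TAI libraries and all 3 controls, with a difference from TAI of −0.60 (SE 0.14, adjusted p = 0.0613) by limma. Nlrc5 was at 8.06, 6.57 and 7.81 FPKM, with −0.69 (SE 0.17, adjusted p = 0.0835). Both missed the threshold in the fit over all 6 groups and passed it when the 2 groups were fitted alone (adjusted p = 0.0198 for Tap1 and 0.0407 for Nlrc5, limma). In all, 7 of the 10 genes had every simvastatin library below every TAI library, with 19.6% of all genes. They were H2-K1 (642 ± 16.4 FPKM with simvastatin), H2-D1 (427 ± 18.1), Psmb8 (68.5 ± 5.36), Psmb10 (80.5 ± 1.73), Tap1, Psmb9 and Nlrc5. B2m (1554 ± 181), Tap2 (18.2 ± 1.29) and Tapbp (108 ± 6.87) overlapped. An unadjusted p under 0.05 (limma) was found in 4 of the 10, and in 14.9% of all genes. The estimate was below 0 for 10 of 10 genes, with a median of −0.18 against −0.09 for all genes. With median ratio scaling, which moved the median of all genes from −0.09 to 0.01, it was below 0 for 7 of 10.

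Against unirradiated controls, simvastatin-treated males showed none of the 10 genes past the threshold by limma, with 5.37% of all genes called. At an unadjusted p under 0.05 there was 1 of the 10, Psmb9, a share below the 17.9% of all genes. In 4 genes (Tap1, Tap2, Psmb9 and Psmb10) every simvastatin library was below every control, as in 16.6% of all genes. The 95% interval of the Nlrc5 difference was −0.33 to 0.38, and that of H2-K1 was −0.13 to 0.29. Both male comparisons with TAI share the same 3 TAI libraries, and those with controls the same 3 control libraries.

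Markers of other cells were summed in the same libraries. The 22 T cell and intraepithelial lymphocyte genes in the table summed to 134 to 337 FPKM in male controls, 118 to 211 after TAI and 233 to 289.9 with simvastatin. Of the 21 tested, 1 gene (Klrd1, an NK cell receptor chain, −1.25 (SE 0.23, adjusted p = 0.00797) by limma) fell after TAI and none passed in simvastatin against TAI. After TAI 18 of the 21 estimates were below 0, and 8 of 21 had an unadjusted p under 0.05 (limma), where 12.1% of all genes had. With simvastatin against TAI 20 of the 21 were above 0, and 11 of 21 had such a p, where 14.9% of all genes had. The 15 macrophage and dendritic cell genes summed to 31.5 to 83.2, 65.3 to 78.98 and 82.8 to 100.5 FPKM, and the 11 MHC class II genes to 899 to 1544, 1459 to 1669 and 1920.1 to 2036. The 12 Paneth cell genes did have the order of Nlrc5, Tap1 and Psmb9, highest after TAI, with sums of 196 to 428 FPKM in controls, 537 to 705 after TAI and 209.7 to 304 with simvastatin, and 12 of 12 estimates above 0 after TAI without a call. The 14 proliferating cell genes also had 14 of 14 estimates above 0 after TAI, and 14 of 14 below 0 with simvastatin against TAI, without a call. Their sums overlapped, at 78.04 to 150.4 FPKM in controls, 107.8 to 170.6 after TAI and 59.3 to 113.2 with simvastatin. At an unadjusted p under 0.05 (limma) there were 0 of 14 after TAI and 7 of 14 with simvastatin against TAI, where 14.9% of all genes were. Goblet cell genes took the opposite order, with sums over 8 genes of 4034 to 5493 FPKM in controls, 3061 to 3286 after TAI and 4366 to 4818 with simvastatin, without overlap between TAI and either group. Of these 8, Zg16, Clca1 and the mucin gene Muc2 fell after TAI (−0.70, −1.01 and −0.67, limma), and none passed with simvastatin against TAI. In simvastatin-treated males against controls, 4 of 12 tested macrophage and dendritic cell genes, 4 of 9 MHC class II genes and 4 of 4 red blood cell genes were higher, and 1 MHC class II gene was lower. Without male control replicate 3 the macrophage count was 1 of 12. No gene of the T cell, macrophage, MHC class II, Paneth and goblet cell lists was at 0 in all 3 libraries of a group. The part of any of them in the results was not tested.

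In females, none of the 10 genes passed the test after TAI by limma, with 0.756% of all genes called. At an unadjusted p under 0.05 there were 3 of the 10, and 17.2% of all genes. Psmb10 was closest. It was at 67.9, 63.8 and 70.8 FPKM in controls and 89.8, 85.6 and 74.2 after TAI, the single 1 of 10 whose groups did not overlap upward (10.3% of all genes), with 0.29 (SE 0.07, adjusted p = 0.0745). Psmb9 was at 31.9, 29.8 and 34.8 and 41.7, 44.6 and 33.6 FPKM, with 0.30 (SE 0.09, adjusted p = 0.158). The third TAI value was the low one here, and it came from the library that stood apart in Paneth cell and other marker genes. The same held for Tap1 (47.1, 53.2 and 37.2 FPKM), Tap2 (25.9, 27.1 and 17.6), Nlrc5 (11.2, 12.01 and 7.48), H2-K1 (736, 793 and 611) and H2-D1 (546, 566 and 411).

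Without female TAI replicate 3, Psmb10 passed the test with 0.37 (adjusted p = 0.0325), and Psmb9 had 0.41 (adjusted p = 0.0663) by limma. H2-K1 and B2m did not share this direction. H2-K1 was at 799.8, 761 and 833 FPKM in female controls, a difference after TAI of −0.17, and of −0.06 (adjusted p = 0.878) without that library. B2m was at 1882, 1605 and 1846 FPKM in controls and 1671, 1669 and 1657 after TAI, a difference of −0.09. Over the 10 genes the median was 0.19, and over all genes it was 0.12, which median ratio scaling brought to −0.01.

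HFD after TAI was compared with TAI alone in females. Psmb10 fell by 0.31 on the log2 scale (SE 0.07, adjusted p = 0.0267, limma), from 89.8, 85.6 and 74.2 FPKM to 70.1, 64.5 and 65.6, with no overlap. It was the only 1 of 10 called lower (1.42% of all genes). Tapbp (120.4, 124 and 100.2 FPKM after TAI and 95.002, 94.7 and 91.2 with HFD) and B2m (1502, 1498 and 1556 with HFD) were also without overlap, which made 3 of 10 beside 9.94% of all genes. Nlrc5 was at 6.11, 6.03 and 8.91 FPKM, with −0.48 (SE 0.17, adjusted p = 0.16). An unadjusted p under 0.05 (limma) was found in 5 of the 10, and in 15% of all genes. The Psmb10 call was lost without female TAI replicate 1 or 2 or any 1 of the 3 HFD libraries (adjusted p from 0.0571 to 0.121) and with median ratio scaling (−0.28, adjusted p = 0.372). It was lost as well when the 2 groups were fitted alone (adjusted p = 0.330, limma) and with weights for the spread of each group (adjusted p = 0.0814).

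The count of calls rested most on female TAI replicate 3. Without it, 6 of the 10 genes were lower with HFD: Psmb10 (−0.39, adjusted p = 0.00414), Tap2 (−0.57, adjusted p = 0.011), Nlrc5 (−0.67, adjusted p = 0.0244), Psmb9 (−0.35, adjusted p = 0.0222), H2-D1 (−0.37, adjusted p = 0.0222) and Tapbp (−0.38, adjusted p = 0.039), all by limma. This setting was chosen among the left-out libraries after the values were seen. Leaving that library out also changes the shared spread for every gene. The share of all genes called lower in that fit is not given here, so the 6 have no background to be set against. H2-K1 did not follow, with −0.04 (adjusted p = 0.805), and its values with HFD were 780.4, 730.2 and 716 FPKM. Of 9 tested MHC class II genes 4 were lower with HFD than after TAI, and the sum over 11 was 1273 to 1827 FPKM after TAI and 993 to 1070.0 with HFD. Of 15 enterocyte genes 4 were higher and 1 lower, with sums of 23668 to 28669.5 and 35314 to 38505 FPKM. Paneth cell genes summed to 904 to 2509 FPKM with HFD. T cell and intraepithelial lymphocyte genes had 21 of 21 estimates above 0 with HFD against TAI, without a call. An unadjusted p under 0.05 (limma) was found in 0 of these 21, and in 15% of all genes. The part of these cells in the results was not tested.

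Against female controls, HFD-fed irradiated females had none of the 10 genes past the threshold by limma, with 4.59% of all genes called. At an unadjusted p under 0.05 there were 2 of the 10, a share below the 25.9% of all genes. H2-D1 was at 529.5, 545 and 565 FPKM in controls and 435, 428 and 429.5 with HFD, with −0.34 (SE 0.11, adjusted p = 0.0774). Fitted with these 2 groups alone it passed (adjusted p = 0.0202), as it did without female TAI replicate 3, which enters the shared spread only (adjusted p = 0.0104). B2m was at 1778 ± 151 FPKM in controls and 1519 ± 32.7 with HFD, and H2-D1, B2m and Tap2 were the 3 genes without overlap (10.8% of all genes). H2-K1 overlapped, so the 2 heavy chains took different places in this comparison, −0.10 for H2-K1 and −0.34 for H2-D1. That contrast between the chains was not tested.

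**Figure D4:**
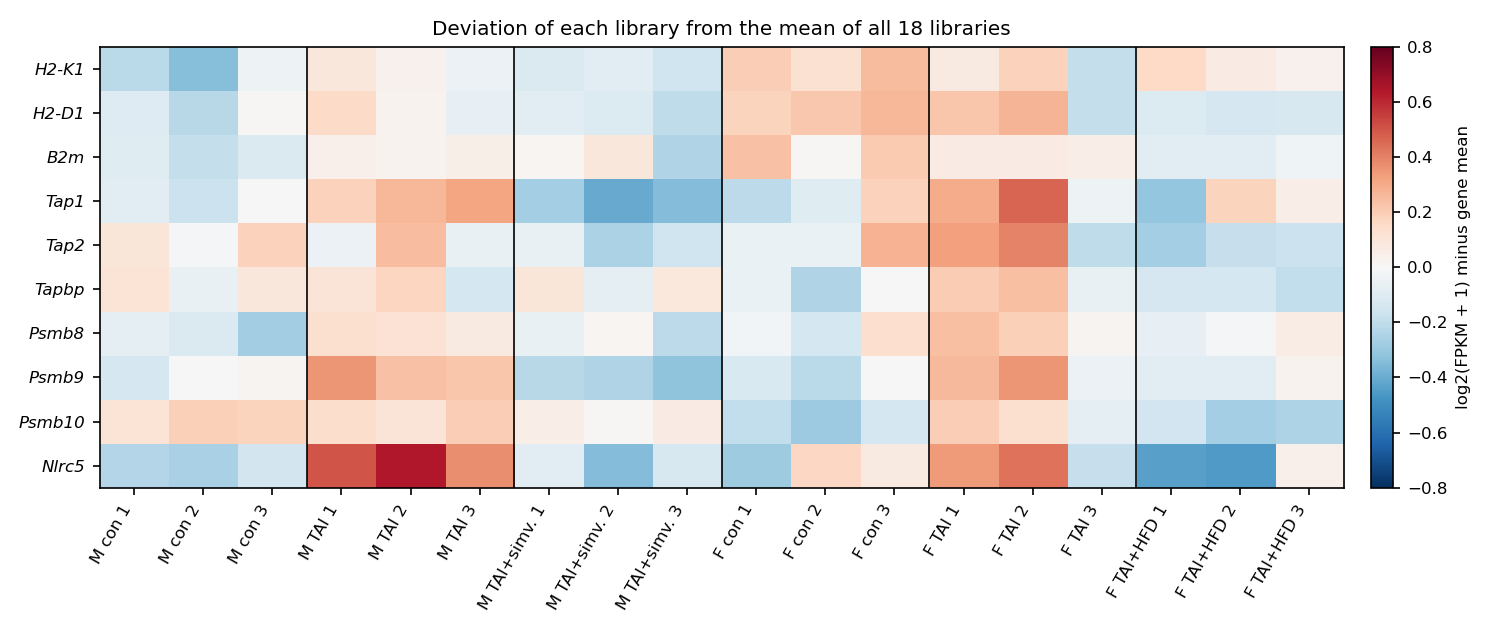
Deviation of log2(FPKM + 1) from the gene's mean over the 18 libraries, from low (blue) to high (red), for the 10 genes by library. Male TAI libraries and female TAI replicates 1 and 2 are mostly red from Tap1 to Nlrc5, female TAI replicate 3 is not, and the heavy chains and B2m have their highest group mean in female controls.

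Whether TAI acted differently in the sexes was tested as the female difference minus the male one. None of the 10 genes passed by limma, 1.33% of all genes did. At an unadjusted p under 0.05 there were 2 of the 10, and 10.7% of all genes. These were H2-K1, with −0.39 (SE 0.14, adjusted p = 0.255), and Psmb10, with 0.31 (SE 0.10, adjusted p = 0.201). For Nlrc5 the value was −0.50 with a 95% interval of −1.01 to 0.00. Without female TAI replicate 3 Psmb10 passed, at 0.39 (adjusted p = 0.0433), while H2-K1 was at −0.29 (adjusted p = 0.389) and Nlrc5 at −0.31 (adjusted p = 0.692).

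The unirradiated sexes themselves differed, a comparison added after the data were seen. Psmb10 was at 84.5, 89.4 and 88.6 FPKM in male controls and 67.9, 63.8 and 70.8 in female controls, −0.37 (SE 0.07, adjusted p = 0.0078) by limma. Of all genes 3.02% were called lower in females and 2.12% higher. H2-K1 was the 1 gene of 10 called higher, at 601, 552 and 679 FPKM in males and 799.8, 761 and 833 in females, 0.39 (SE 0.10, adjusted p = 0.0337). H2-D1 (437, 402 and 472 and 529.5, 545 and 565 FPKM) and B2m (1495, 1402 and 1474 and 1882, 1605 and 1846) were likewise without overlap but did not pass (adjusted p = 0.0915 and 0.102). Without female TAI replicate 3 in the shared spread H2-D1 passed (adjusted p = 0.0149), which made 3 calls of 10. The share of all genes called in that fit is not given here. So 3 of 10 were above in every female control, where 8.15% of all genes were, and 1 of 10 below, where 17.7% were. An unadjusted p under 0.05 (limma) was found in 4 of the 10, and in 20.2% of all genes. Psmb10 kept its call without each of the 6 libraries in turn (adjusted p from 0.0180 to 0.0376), and lost it with median ratio scaling (−0.26, adjusted p = 0.335). H2-K1 lost its call without male control replicate 1 or 2 or female control replicate 1 or 3 (adjusted p from 0.0850 to 0.148). Its call was lost as well with median ratio scaling (0.50, adjusted p = 0.114, limma) and quantile normalization (0.31, adjusted p = 0.0502). The same held with no filter (adjusted p = 0.0641), the highest transcript alone (adjusted p = 0.0516) and the 2 groups fitted alone (adjusted p = 0.0975). Sex cannot be told apart here from any difference in housing or handling between male and female mice, and enterocyte genes summed to 24288 to 27168 FPKM in male controls and 31509 to 33637 in female controls.

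For 2 genes the deposited table split the FPKM unevenly among transcripts. Tap1 transcript ENSMUST00000041633 took from 0% to 62.3% of the gene's FPKM, being listed at 0 in 3 libraries, and ENSMUST00000170086 took most of the rest. Nlrc5 was spread over 4 transcripts, and ENSMUST00000053085 took from 0% to 69.8%, and from 0% to 68.4% within the female controls alone. The sum over transcripts was steadier than its parts. Taking only the highest transcript of each gene, the Tap1 difference after male TAI turned from 0.34 to −0.14, and that of Nlrc5 went from 0.72 to 1.55 and lost its call (adjusted p = 0.325, limma). The other 8 genes had 1 transcript with a median share of 84.1% or more.

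**Figure D5:**
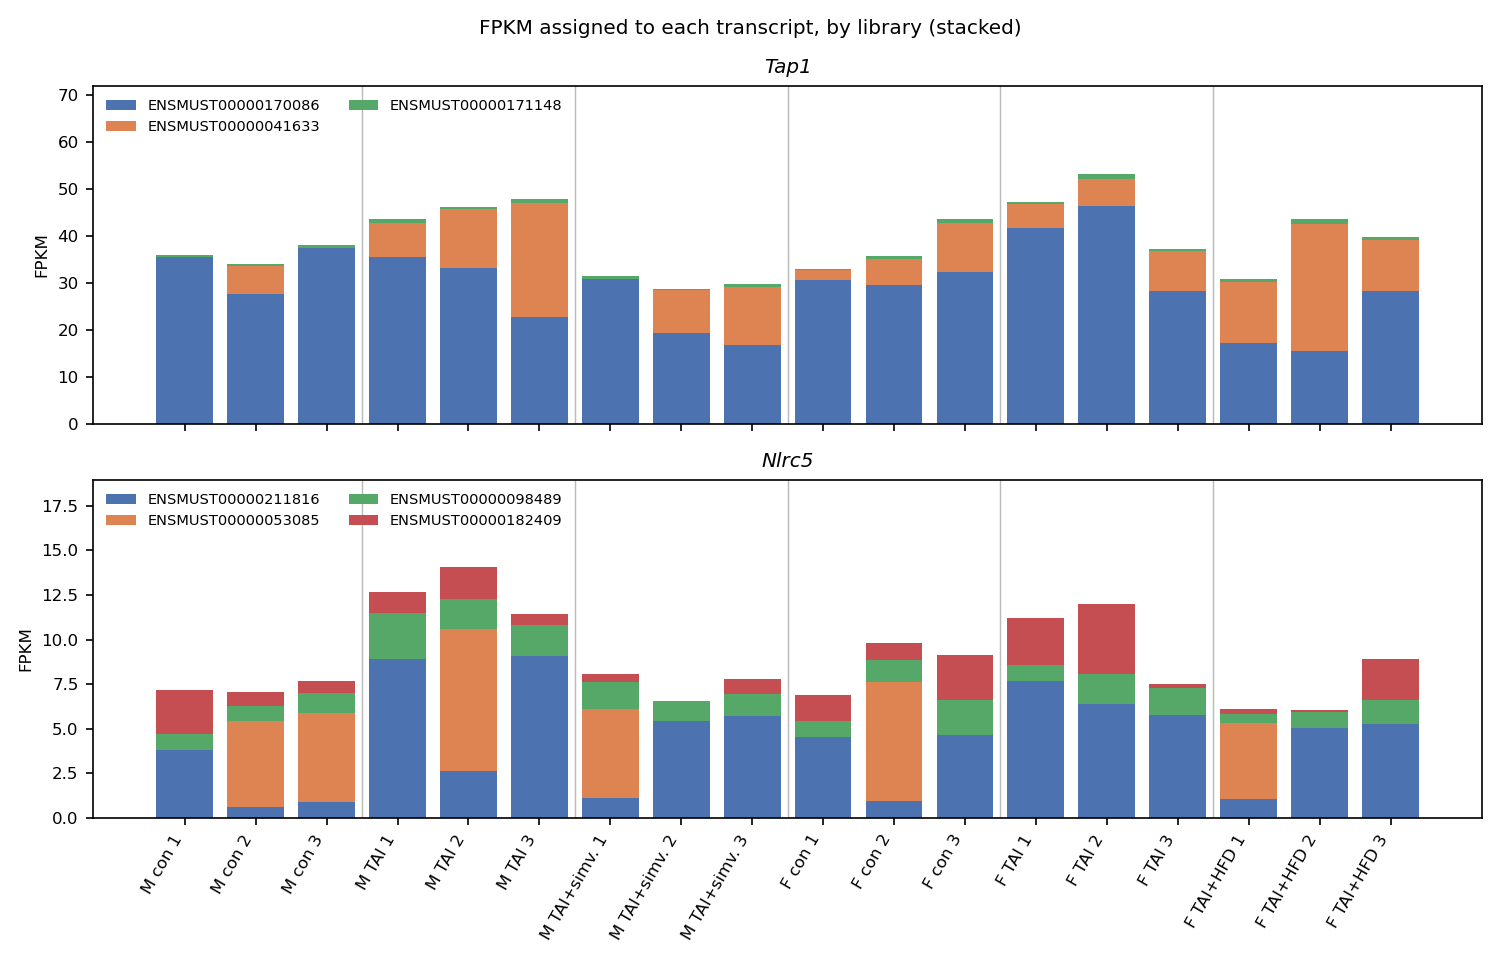
FPKM assigned to each transcript of Tap1 (upper) and Nlrc5 (lower), stacked by library. The height of the stack, the value used in the text, varies less within a group than the split among transcripts.

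The replacement of constitutive by immunoproteasome subunits was looked at as a ratio of FPKM in each library. Psmb10 to Psmb7 was 2.78, 2.18 and 1.81 in female TAI libraries and 1.79, 1.60 and 1.57 with HFD, a fold of 0.734 between the means. Psmb8 to Psmb5 was 3.00, 2.67 and 2.52 after female TAI and 1.97, 2.08 and 2.43 with HFD, a fold of 0.790. Both parts of these ratios moved, since Psmb5 averaged 29.6 FPKM after female TAI and 33.7 with HFD, and Psmb7 37.5 and 40.4. Psmb9 to Psmb6 was 0.705, 0.554 and 0.511 after male TAI and 0.530, 0.449 and 0.428 with simvastatin, a fold of 0.795 with overlapping libraries. In the same comparison Psmb8 to Psmb5 had a fold of 0.982 and Psmb10 to Psmb7 of 1.10, both with overlap. With HFD against female TAI, Psmb9 to Psmb6 had a fold of 0.760, also with overlap. In the exact two-sided permutation test, 3 libraries against 3 cannot go below p = 0.1, and that value was reached 3 times among the 18 ratios tested (0.45 after adjustment). Among these was Psmb10 to Psmb7 with HFD against female controls (fold 0.790). There Psmb10 averaged 67.5 FPKM in controls and 66.7 with HFD, and Psmb7 32.4 and 40.4. After male TAI the 3 ratios were 1.16 (Psmb8), 1.09 (Psmb9) and 0.858 (Psmb10) times those of controls, and all overlapped. No gene passed the limma test in any of the 6 comparisons among the 3 constitutive catalytic subunits, the 8 activator and assembly genes or the 28 other proteasome subunits. With simvastatin against TAI, 13 of those 28 had an unadjusted p under 0.05, as had 14.9% of all genes, and 28 of 28 had an estimate below 0, with a median of −0.24 against −0.09 for all genes. With median ratio scaling 25 of 28 were below 0 and the median was −0.12. With HFD against TAI 0 of 28 had such a p, and 15% of all genes.

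Of 27 other class I and class I-like chains listed, 13 could be tested. After male TAI 2 rose, H2-Q6 (0.72, SE 0.13, adjusted p = 0.00924) and H2-Q7 (0.63, SE 0.12, adjusted p = 0.00955), by limma. With simvastatin 4 fell, namely H2-Q6 (−0.85), H2-T24 (−1.28), H2-T22 (−0.54) and H2-Q4 (−0.54). With median ratio scaling none of these 13 passed in either comparison. H2-Q6 stood at 19.97, 15.6 and 18.5 FPKM in male controls, 29.8, 29.4 and 31.2 after TAI and 16.7, 15.9 and 16.1 with simvastatin, so TAI was above both other groups in every library. In females none passed after TAI. In female against male controls H2-Q6, H2-Q7 and H2-T22 were higher, with log2 differences of 0.65, 0.64 and 0.40. These chains are close copies of one another and of the classical chains, and the values may be split among them.

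H2-Q10, a secreted class I chain known from mouse liver, went its own way. It was at 1.07, 1.27 and 1.36 FPKM in female controls, 2.82, 1.93 and 1.53 after TAI and 23.7, 15.3 and 15.9 with HFD. The difference of HFD from TAI was 2.64 (SE 0.18, adjusted p = 2.19e-06) and from controls 3.09 (SE 0.18, adjusted p = 2.2e-07) by limma. Its libraries with HFD were above the other 15, which ranged from 1.07 to 3.81 FPKM. In the same comparison H2-Q4 (−0.59, SE 0.12, adjusted p = 0.0126) and H2-Q6 (−0.52, SE 0.13, adjusted p = 0.0466) fell. Of the 13 chains 1 rose and 2 fell, and with median ratio scaling the counts were 1 and 0. Without female TAI replicate 3 they were 1 and 5, with the share of all genes in that fit not given here.

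Among 12 genes of peptide trimming and loading 1 passed the test in any comparison, the cytosolic aminopeptidase Lap3. It was at 294, 262 and 244 FPKM in male and 419, 338 and 406 in female controls, 0.54 (SE 0.09, adjusted p = 0.00418) by limma. After TAI it fell in females to 262, 275 and 283 FPKM (−0.50, SE 0.09, adjusted p = 0.0405), and was at 305, 288 and 292 in males. For this gene the female difference minus the male one passed the test (−0.65, SE 0.13, adjusted p = 0.0222). With HFD it was at 237, 275 and 267 FPKM.

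Among 25 tested genes that control class I transcription, none passed after male TAI by limma. With simvastatin against TAI 3 fell, among them Stat2 (−0.75, SE 0.16, adjusted p = 0.0484) and Irf9 (−0.50, SE 0.10, adjusted p = 0.0367), which act together in the response to type I interferon. None of the 25 passed with median ratio scaling or quantile normalization. Stat2 was at 22.4, 20.6 and 27.2 FPKM in male controls, 29.9, 35.1 and 30.1 after TAI and 18.5, 18.8 and 17.98 with simvastatin. With simvastatin against male controls 2 of the 25 were lower, Rfx5 (−0.55, SE 0.14, adjusted p = 0.034) and Irf9 (−0.38, SE 0.10, adjusted p = 0.0442), by limma. After female TAI 1 was higher, the transcription factor Irf8 (0.42, SE 0.09, adjusted p = 0.0488, limma). Irf8 averaged 29.1 FPKM in female controls, 39.4 after TAI and 28.7 with HFD. Values of these calls under other scalings are not given here. In females with HFD against TAI, Socs1, an inhibitor of interferon signalling (−0.61), and Irf8 (−0.45) fell, and both were lower in female than in male controls (−0.72 and −0.34).

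Interferon-induced genes outside the class I pathway were set beside the 10. After male TAI 7 of 20 genes induced by interferon gamma rose, against the 1.20% of all genes above, with 4 of 20 left without male control replicate 3. Irgm1, a GTPase of defence against intracellular microbes, was at 26.7, 27.2 and 29.4 FPKM in controls and 58.9, 55.997 and 54.2 after TAI (0.997, SE 0.18, adjusted p = 0.0069), and Gbp3, a guanylate-binding protein, had 0.94 (SE 0.17, adjusted p = 0.00816) by limma. With simvastatin 3 of the 20 fell, Gbp6 (−1.52), Irgm1 (−1.27) and Gbp3 (−1.02), and of 25 genes induced by type I interferon, 1 of which (Ifi27l2a, 1.64) rose after TAI, 16 fell. The count of 16 was 4 with median ratio scaling and 9 with quantile normalization, with 25 of 25 estimates below 0 in each. Against unirradiated controls 12 of the 25 were also lower with simvastatin, 25 of 25 had an estimate below 0 and the median was −0.92, with counts of 5 under median ratio scaling and 8 under quantile normalization. In females none of the 20 and none of the 25 passed after TAI, with 19 of 20 estimates above 0 for the first list and 5 of 25 for the second. Without female TAI replicate 3 those counts were 20 of 20 and 20 of 25.

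The genes outside the set whose levels most resembled the 10 were found by the mean Pearson r of log2(FPKM + 1) with the 10 over the 18 libraries. They were Igtp (0.623), H2-T22 (0.621), Irgm2 (0.619), H2-Q4 (0.588), Znfx1 (0.581), Stat2 (0.580), Trim6 (0.577) and Mlkl (0.570). The libraries share tissue and groups, so these values are a description. Among the 10 themselves 41 of 45 pairs had a positive r, with a median of 0.453. Tap1 and Psmb9 had the highest (0.862), and H2-K1 and Psmb10 the lowest (−0.443). Once group means were removed, H2-K1 and H2-D1 were the closest pair (0.914), H2-K1 and Psmb10 stood at 0.567, and B2m stood nearest to Psmb8 (0.621). Tap1 and Psmb9 then stood at 0.599, below pairs such as Tap2 and Tapbp (0.797) and H2-D1 and Psmb9 (0.788).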

How the data were processed

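RNA from small intestine was sequenced in 18 libraries, 3 in each of 6 groups. The authors deposited FPKM per transcript, and the submitters' notes list Cuffdiff 2.1.1, Bowtie2 2.2.8, StringTie 1.3.1 and HISAT2 without saying what each did. The sources used here give no genome build. FPKM keeps no depth, so no interval from counts could be given. Sex was read from the sample titles and the study's methods. Transcripts were added by symbol, a gene was kept if 3 or more libraries reached 1 FPKM (11767 genes), and log2(FPKM + 1) was fitted with limma 3.58.1 in R 4.3.3, with a mean for each of the 6 groups, a prior variance that followed the mean level, and 12 residual degrees of freedom before moderation. Benjamini-Hochberg adjustment covered all 11767 genes, the threshold was 0.05, and the fit was tested on simulated data. Replicates are separate samples per the labels, which name no litter, day or batch, so p-values measure the spread between these samples. Ratios were tested by exact two-sided permutation. Tables were handled in Python 3.11.15 with pandas 2.3.3 and numpy 2.4.6. Named were all 10 members, up to 4 genes a list and comparison with the smallest p past the threshold, and the 8 genes most like the members. The values of 1 listed gene are not reported here. The members and lists were chosen with earlier results of these data known. Alternatives covered pseudocounts, filters, scaling, the transcript used, weights, trend, threshold, a replicate block and each library left out.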

Additional observations from a re-analysis of the deposited data

Results flagged for a closer look

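H2-K1 and B2m, which form one surface molecule, were picked from the gene set for the following pattern. Every male TAI library was above the mean of male controls, and every female TAI library was below the mean of female controls. The share of all genes with this pattern is not given here, so the pattern has no background to be set against. The female minus male difference of the TAI change was −0.39 on the log2 scale for H2-K1 (adjusted p = 0.255, limma) and −0.26 for B2m (adjusted p = 0.523, limma), so neither difference passed its test. Per library, H2-K1 stood 0.29, 0.23 and 0.15 above the control mean in males, and at −0.12, −0.01 and −0.38 in females. B2m stood 0.17, 0.16 and 0.18 above it in males and at −0.09, −0.09 and −0.10 in females. The −0.01 of H2-K1 lay almost at the control mean. By single libraries, TAI and controls overlapped for H2-K1 in both sexes and for B2m in females. Both genes were also higher in unirradiated females than in unirradiated males in every library, and these comparisons share the control libraries.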

How the results depend on the processing

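The calls among the 10 genes were few and rested on the scaling and on single libraries. For male TAI against control, 1 gene was called, and 0 with no filter, median ratio scaling, quantile normalization or the highest transcript alone. For simvastatin against TAI, 1 was called, 0 with median ratio scaling or quantile normalization, and 3 with weights for the spread of each group, with a threshold of 0.1 or in a fit of only the groups compared. For HFD against TAI, 1 was called, and 0 with median ratio scaling, weighted groups or only the groups compared. For HFD against female control, 0 were called, and 1 with weighted groups, a threshold of 0.1 or only the groups compared. For female TAI against control, 0 were called, and 1 at a threshold of 0.1. For female against male control, 2 were called, 0 with median ratio scaling, and 1 with no filter, quantile normalization, the highest transcript or only the groups compared, and 3 with weighted groups or a threshold of 0.1. The cause was not tested.

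With each library of the groups compared left out in turn, the counts ranged from 0 to 0 for male TAI, 0 to 1 for simvastatin, 0 to 1 for female TAI, 0 to 6 for HFD against TAI, 0 to 1 for the difference between the sexes and 1 to 2 for female against male control. Without female TAI replicate 3, which also enters the shared spread, male TAI had 2 calls, simvastatin against TAI 3, female against male control 3 and HFD against female control 1. The shares of all genes called in that fit are not given here. A direction turned in 1 case, Tap1 after male TAI, at −0.14 with the highest transcript alone. Single-gene values were followed where the main fit had an unadjusted p under 0.05 (limma). Under the alternatives 403 kept direction and side of the threshold, 35 lost a call and 13 gained one. The 35 all came from the few values called in the main fit, while most of the 403 were uncalled in the main fit and stayed so. With the replicate number as a block, male TAI had 0 calls (Nlrc5, adjusted p = 0.0544, limma), and no other call among the 10 changed. Same-numbered libraries deviated together with r from −0.459 to 0.323. With 3 libraries a group these values neither show nor exclude a pairing of the samples by number. Over all genes the calls higher and lower moved with scaling: male TAI 141 and 106, but 86 and 79 with median ratio scaling; simvastatin against TAI 9 and 73, but 5 and 16; female against male control 249 and 355, but 295 and 176. The unknown depth limits Nlrc5 most, the lowest of the 10 genes.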
